A study of Homo sapiens with 9 samples.

Results

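The mitochondrial ribosomal protein genes are the nuclear genes whose products build the ribosome of the mitochondrion. They were taken here as the protein-coding genes with an MRPL or MRPS symbol, pseudogenes excluded, which gave 76 of the 60234 genes counted. RNA was sequenced from Ramos cells, an established EBV-negative Burkitt lymphoma B cell line. The cultures were untreated (0 h) or had been given CHIR99021, which inhibits the kinase GSK-3, at 3 µM for 3 h or 6 h, and each time has 3 biological replicates. All groups share the cell line and the medium, and no untreated library at 3 h or 6 h was analysed here, so the effects of the compound and of the elapsed time cannot be told apart.

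Mitochondrial ribosomes translate the few mRNAs that the mitochondrial genome encodes, all of them for subunits of the oxidative phosphorylation complexes. The ribosomal RNA is made inside the organelle, whereas every protein of the particle is encoded in the nucleus, translated in the cytosol, imported and assembled with that RNA. Compared with its bacterial relative the particle has lost RNA and gained proteins, so some members have a bacterial counterpart and others exist only in mitochondria. Of the 76 members, 50 belong to the large subunit and 25 to the small subunit. Among the large subunit proteins, 30 have a bacterial counterpart and 20 are specific to mitochondria, and in the small subunit these numbers are 15 and 10. MRPS30 and MRPS18A carry small subunit names but sit in the large subunit. MRPS36 was left without a subunit because its product is now placed in the oxoglutarate dehydrogenase complex.

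Each library held between 46359911 and 52880876 reads assigned to a gene. All 76 members were among the 15847 genes that could be tested. The 8 B cell and Burkitt lymphoma markers, such as CD79A and PAX5, exceeded 1 CPM in all 9 libraries. None of 8 T, NK and myeloid cell markers and none of 6 epithelial and fibroblast markers did, with summed levels of 0.0392 to 0.268 CPM and of 0 to 0.0219 CPM per library. Untreated replicate 3 stood apart within its group, as member reads were 0.471% of its gene reads against 0.414% and 0.42% in untreated replicates 1 and 2. Cytosolic ribosomal protein genes also had a larger share there, 6.18% against 5.23% and 5.30%. Counts of calls are therefore also given without that library.

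Member mRNA was higher in treated cells, slightly at 3 h and more clearly at 6 h. Levels are TMM-scaled normalised counts (CPM), and a gene was called where its edgeR quasi-likelihood p, adjusted by Benjamini-Hochberg over all genes tested, was under 0.05. Summed over the 76 members, the level was 3931 ± 254 CPM at 0 h, 4726 ± 122 CPM at 3 h and 5720 ± 235 CPM at 6 h (SD, n = 3 each). The library sums ran from 3760 to 4223 CPM at 0 h, from 4594 to 4834 CPM at 3 h and from 5472 to 5940 CPM at 6 h. These ranges did not overlap. As a share of gene reads without TMM scaling, the members held 0.414% to 0.471% at 0 h, 0.444% to 0.464% at 3 h and 0.526% to 0.547% at 6 h, so that 3 h and 0 h overlapped and 6 h was above every other library. In bulk RNA, fewer cells with much of an mRNA and less of it per cell cannot be told apart.

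At 3 h, 50 of the 76 members rose, 5 fell and 21 did not pass. Among all genes tested, 32.8% rose and 33.5% fell in that comparison. The median log2 fold change of the members was 0.26, against -0.01 over all genes tested. At 6 h, 65 members rose, 2 fell and 9 did not pass, beside 35.7% and 35% of all genes. The median was 0.50, or 1.42-fold, against 0.02 over all genes, and single members ran from -0.35 to 1.46. Between the treated times, 50 members were higher at 6 h than at 3 h and 1 was lower, beside 21.5% and 21.9% of all genes, with a median of 0.25. For 64 members every 6 h library lay above every 0 h library, where 36.2% of all genes tested did so.

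The size of these counts depends on how libraries are scaled. With library size alone, which moved the median of all genes to -0.22 at both times, 25 members rose and 16 fell at 3 h, and 53 rose and 8 fell at 6 h. That scaling lowered the median of all genes by 0.20 at 3 h and 0.24 at 6 h relative to TMM, so small rises of single genes can be lost and small falls gained. With upper-quartile factors, 30 rose and 14 fell at 3 h, and 58 rose and 5 fell at 6 h. Relative to the median of all genes, the member median stayed between 0.23 and 0.30 at 3 h and between 0.45 and 0.54 at 6 h under every alternative tried. Changing the scaling factors moves all genes by nearly the same amount, so this difference could not test the dependence on scaling. Its range comes from the other alternatives, such as filters and left-out libraries. Without untreated replicate 3, 58 members rose and 4 fell at 3 h, and 68 rose and 1 fell at 6 h. These were the highest counts of rises on leaving out each library in turn. Over those fits, 47 to 58 members rose at 3 h and 61 to 68 at 6 h.

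**Figure D1:**
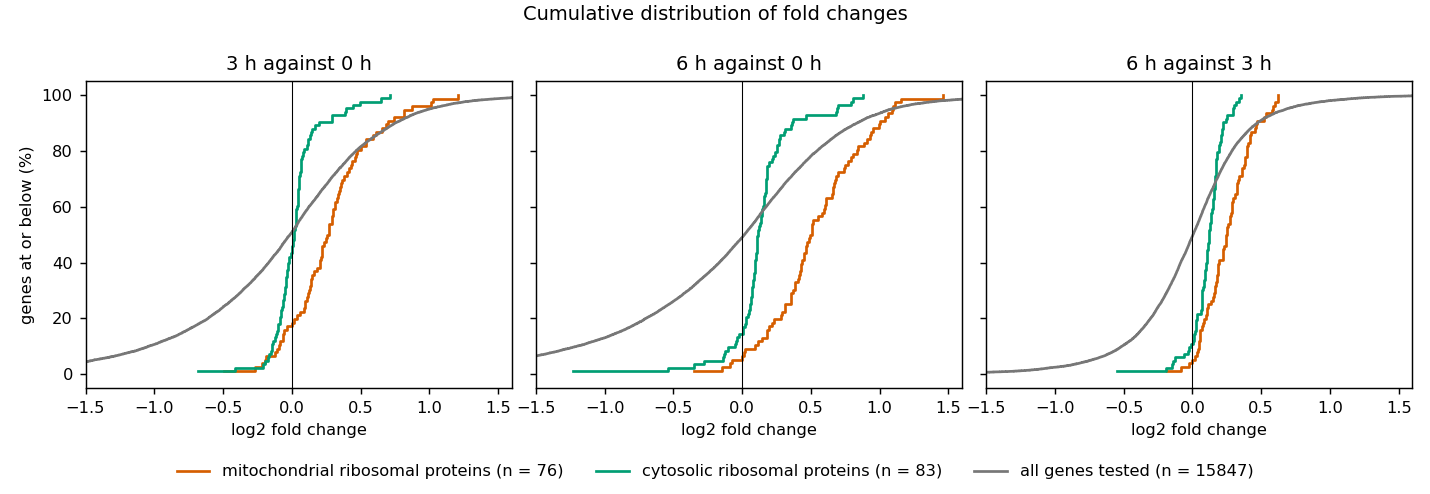
Cumulative percentage of genes (vertical axis) at or below each log2 fold change (horizontal axis) for the mitochondrial ribosomal protein genes, the cytosolic ribosomal protein genes and all genes tested, in the 3 comparisons. The curve of the mitochondrial members lies right of the curve of all genes over most of its range, with a median of 0.26 at 3 h and 0.50 at 6 h, while the cytosolic genes centre at 0.01 and 0.11 (TMM scaling; -0.19 and -0.12 with library size alone).

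Both subunits took part. Of the 50 large subunit genes, 32 rose and 3 fell at 3 h (median 0.23), and 44 rose and 1 fell at 6 h (median 0.46). Of the 25 small subunit genes, 17 rose and 2 fell at 3 h (median 0.31), and 20 rose and 1 fell at 6 h (median 0.51). Scaled by library size alone, 15 large subunit genes rose and 9 fell at 3 h, and 10 small subunit genes rose and 7 fell. Summed large over summed small subunit levels gave a ratio of 1.57 ± 0.015 for 0 h, 1.63 ± 0.0165 for 3 h and 1.62 ± 0.0134 for 6 h (SD, n = 3 each). Every treated library was above every untreated one in this ratio. Sums are weighted by abundant genes, and the median log2 fold change was larger for the small subunit at both times. A difference between the subunits was not tested. At 6 h, 41 of the 45 members with a bacterial counterpart rose and 1 fell, with a median of 0.60, and 23 of the 30 mitochondria-specific members rose and 1 fell, with a median of 0.42. The difference between these classes was not tested.

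**Figure D2:**
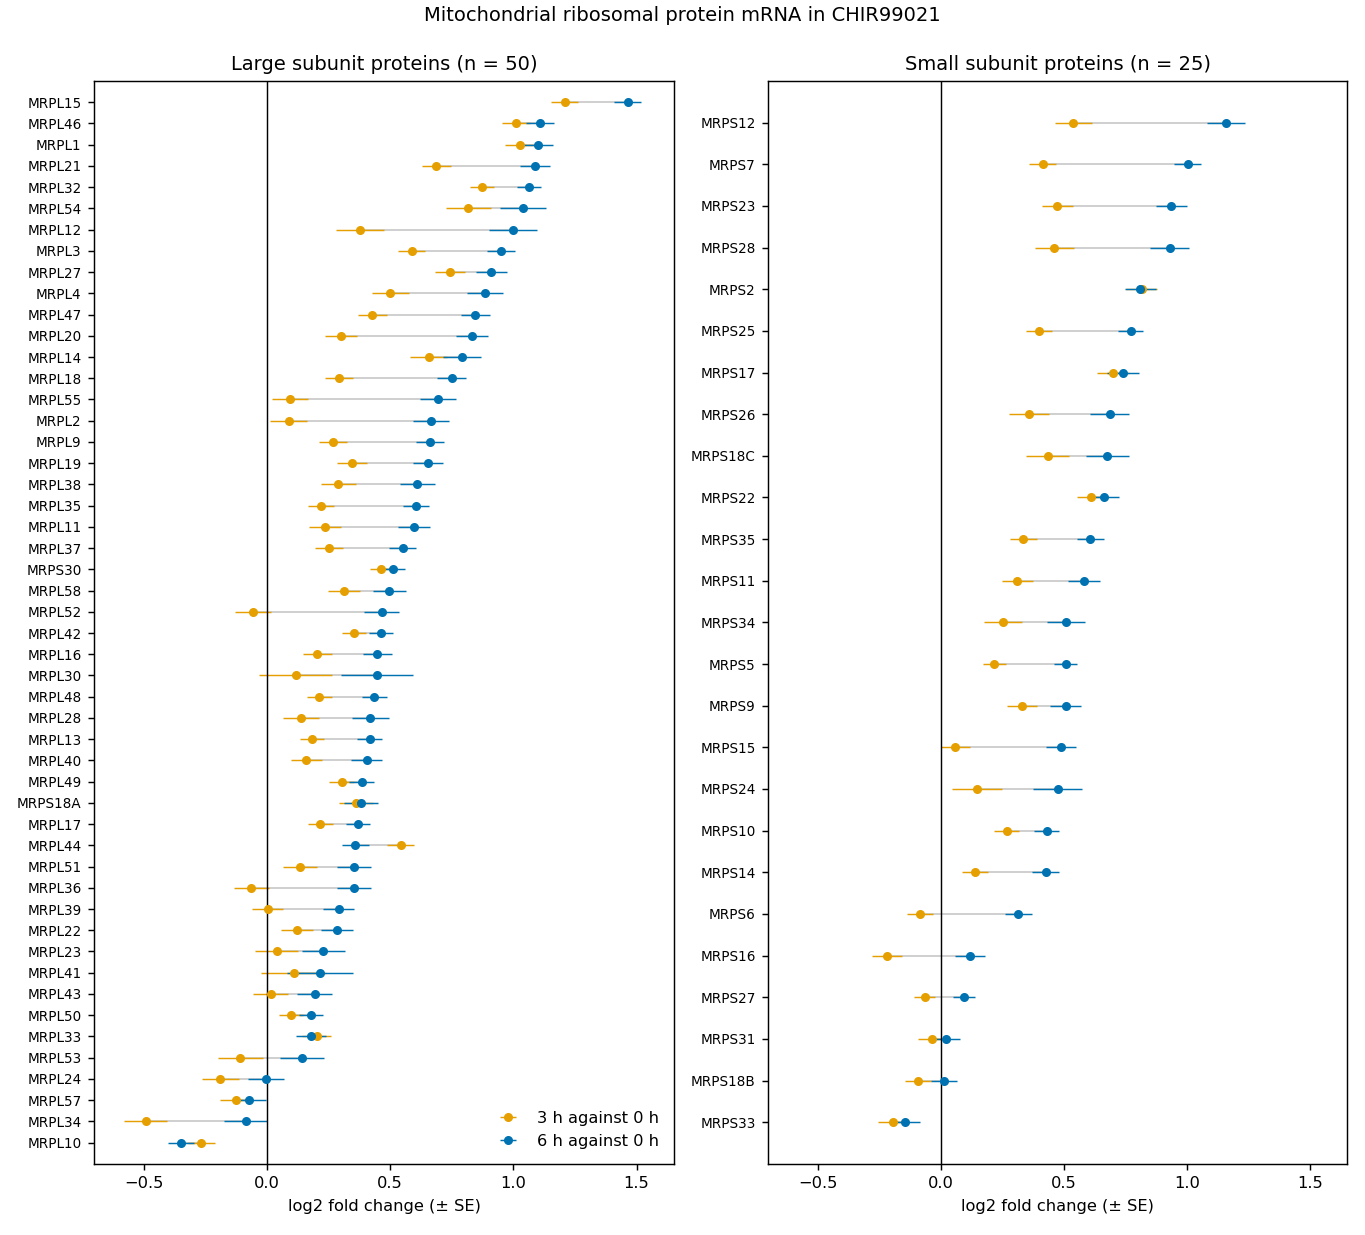
log2 fold change with its SE (horizontal axis) of each large subunit gene (left) and small subunit gene (right), in orange for 3 h and in blue for 6 h, both against 0 h, sorted by the 6 h value. MRPS36 has no subunit here and is not drawn. Points at 6 h run from -0.35 for MRPL10 to 1.46 for MRPL15, and in most rows the blue point lies right of the orange one.

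Among large subunit genes with a bacterial counterpart, MRPL15 had the highest fold change of the members at both times. MRPL15 (ENSG00000137547, chromosome 8) encodes a core protein of the large subunit. It had 32.2, 33.9 and 36.3 CPM in the 0 h libraries, 77.9, 78.9 and 80.2 CPM at 3 h, and 96.4, 90.2 and 96.2 CPM at 6 h. The groups did not overlap at any pair of times. Its log2 fold change was 1.21 at 3 h (SE 0.055, edgeR adjusted p = 3.62e-10) and 1.46 at 6 h (SE 0.055, edgeR adjusted p = 4.28e-11), and the 6 h libraries were also above the 3 h libraries by 0.26 (edgeR adjusted p = 0.00161).

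MRPL1 (ENSG00000169288, chromosome 4) encodes the protein of the mobile L1 stalk, at the side where tRNA leaves the ribosome. It had 12.6, 12.1 and 13.6 CPM at 0 h, 26.4, 25.02 and 26.8 CPM at 3 h, and 27.6, 26.0 and 28.5 CPM at 6 h. Treated libraries were about level with each other and well above the untreated ones. The log2 fold change was 1.03 (SE 0.063) at 3 h and 1.10 (SE 0.063) at 6 h, with edgeR adjusted p = 5.44e-09 and 1.99e-09, and between the treated times it was 0.07 (edgeR adjusted p = 0.365). MRPL46 (ENSG00000259494, chromosome 15), a mitochondria-specific large subunit gene, had 14.8, 15.9 and 16.5 CPM at 0 h, 31.5, 31.2 and 32.3 CPM at 3 h, and 34.5, 32.4 and 34.8 CPM at 6 h. Its groups did not overlap, and its log2 fold change was 1.01 at 3 h (SE 0.058, edgeR adjusted p = 2.82e-09) and 1.11 at 6 h (SE 0.058, edgeR adjusted p = 8.17e-10). Between the treated times the MRPL46 value was 0.10 and did not pass (edgeR adjusted p = 0.18).

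MRPL32 (chromosome 7) encodes a large subunit protein whose precursor is cleaved by the m-AAA protease inside mitochondria before it joins the ribosome. It had 28.8 to 30.0 CPM at 0 h, 53.3 to 55.3 CPM at 3 h and 59.6 to 63.2 CPM at 6 h, without overlap, and rose by 0.87 at 3 h (SE 0.048) and 1.06 at 6 h (SE 0.048, edgeR adjusted p = 2.35e-10). Its exons overlap those of PSMA2 in the annotation, and the strand setting of the counting is not known. MRPL54 and MRPL21, 2 further large subunit genes, rose 2.05-fold and 2.13-fold at 6 h. Of the 76 members, 3 were at least 2-fold higher at 3 h and 8 at 6 h, beside 4.95% and 6.44% of all genes tested.

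MRPS12 (ENSG00000128626, chromosome 19) had the highest fold change of the small subunit genes at 6 h. Its product lies at the decoding centre, where codon and anticodon are matched. It had 41.4, 42.4 and 48.4 CPM at 0 h, 68.0, 57.9 and 66.1 CPM at 3 h, and 105, 93.9 and 95.7 CPM at 6 h. The 3 groups were separate. The log2 fold change was 0.54 at 3 h (SE 0.076, edgeR adjusted p = 2.70e-05), 1.16 at 6 h (SE 0.076, edgeR adjusted p = 1.05e-08) and 0.62 between 6 h and 3 h (edgeR adjusted p = 2.36e-05). Exons of MRPS12 overlap those of SARS2, the mitochondrial seryl-tRNA synthetase, which itself rose by 0.31 at 3 h and 0.54 at 6 h (the 3 h value was 0.10 with library size alone, adjusted p = 0.253). MRPS7 (chromosome 17), an RNA-binding protein of the small subunit head, had 50.4, 51.3 and 56.3 CPM at 0 h, 69.1, 71.9 and 69.5 CPM at 3 h, and 107, 101 and 108 CPM at 6 h. It rose by 0.41 at 3 h (SE 0.054) and by 1.00 at 6 h (SE 0.055, edgeR adjusted p = 1.26e-09), with no overlap between the groups.

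**Figure D3:**
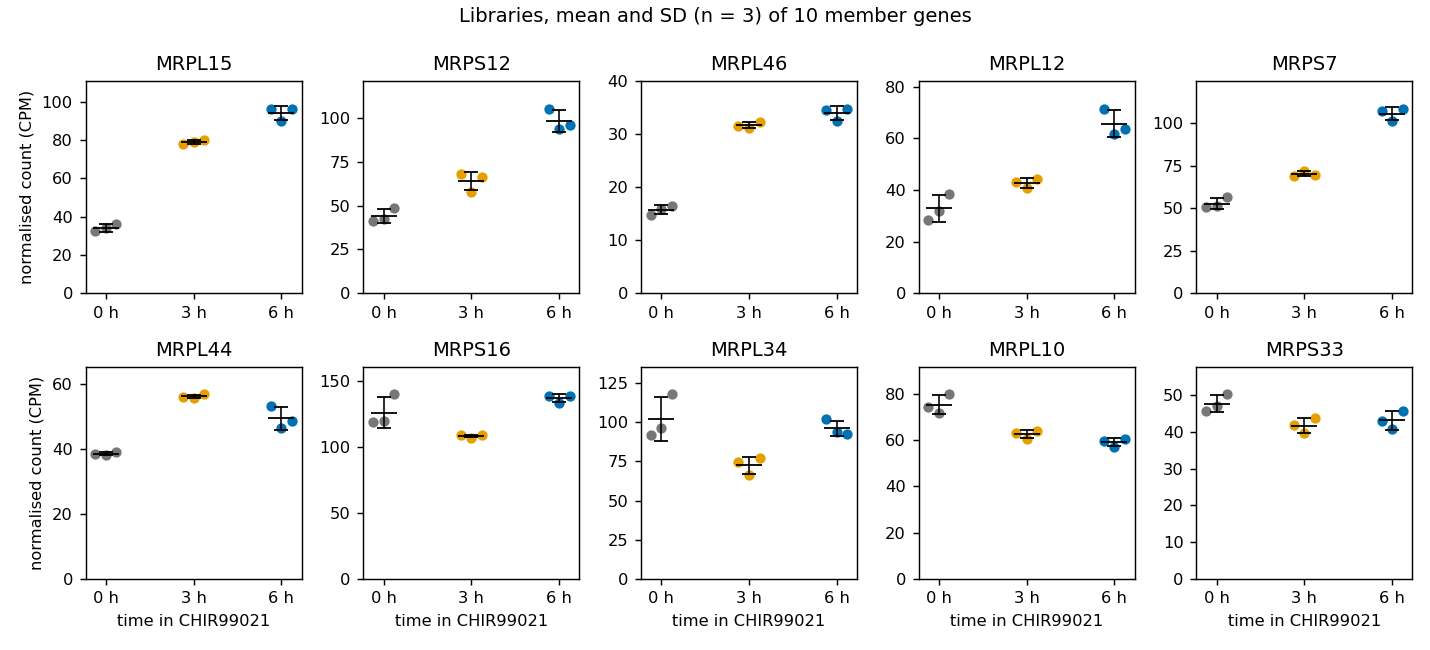
Normalised count (CPM, vertical axis, from 0) in each library at 0 h, 3 h and 6 h in CHIR99021 for selected members, with the mean and SD of 3 libraries in black. MRPL15 and MRPL46 are high at 3 h already, MRPS12, MRPL12 and MRPS7 are highest at 6 h, MRPS16 and MRPL34 are lowest at 3 h, and MRPL10 and MRPS33 have lower means at both treated times.

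The promoter windows of 4 members are shown because MRPS12, MRPL46 and MRPL1 were among the members with the largest rises, while MRPS33 fell. Each runs from 250 bases before to 50 bases after the annotated start, 5′ to 3′ on the gene's strand, as RefSeq gives it on GRCh38.p14. The counts were made on hg19. Capitals mark the letters searched, on both strands. The E-box CACGTG is bound by MYC and its relatives. For NRF1, a regulator of many nuclear genes for mitochondria, a consensus of 10 letters was searched that leaves a central position open to any base. The run of 10 capitals in the MRPS33 window is a match to it. Members of the ETS family such as GABPA bind sequences with the core CCGGAAG. The core searched for YY1 was ATGGCGG, and CCAAT is the box bound by NF-Y. The windows are chr19:38930694-38930993 on the plus strand for MRPS12, chr15:88467339-88467638 on the minus strand for MRPL46, chr4:77862580-77862879 on the plus strand for MRPL1 and chr7:141014903-141015202 on the minus strand for MRPS33.
MRPS12: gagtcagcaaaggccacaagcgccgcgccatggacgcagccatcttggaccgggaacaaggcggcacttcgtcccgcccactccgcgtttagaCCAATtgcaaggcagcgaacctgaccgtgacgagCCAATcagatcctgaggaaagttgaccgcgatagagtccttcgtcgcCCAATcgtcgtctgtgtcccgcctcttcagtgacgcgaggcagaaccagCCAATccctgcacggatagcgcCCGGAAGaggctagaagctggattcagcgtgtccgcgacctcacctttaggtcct
MRPL46: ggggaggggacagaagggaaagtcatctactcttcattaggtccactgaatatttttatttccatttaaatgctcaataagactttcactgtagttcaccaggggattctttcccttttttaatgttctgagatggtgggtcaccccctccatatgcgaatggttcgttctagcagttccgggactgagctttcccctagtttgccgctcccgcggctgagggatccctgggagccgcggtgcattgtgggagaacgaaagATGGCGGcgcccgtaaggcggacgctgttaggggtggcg
MRPL1: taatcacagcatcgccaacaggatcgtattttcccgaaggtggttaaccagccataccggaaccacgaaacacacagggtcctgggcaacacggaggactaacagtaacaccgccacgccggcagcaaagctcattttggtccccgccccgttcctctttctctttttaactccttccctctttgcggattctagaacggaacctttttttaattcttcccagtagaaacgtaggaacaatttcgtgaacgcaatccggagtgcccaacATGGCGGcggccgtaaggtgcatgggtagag
MRPS33: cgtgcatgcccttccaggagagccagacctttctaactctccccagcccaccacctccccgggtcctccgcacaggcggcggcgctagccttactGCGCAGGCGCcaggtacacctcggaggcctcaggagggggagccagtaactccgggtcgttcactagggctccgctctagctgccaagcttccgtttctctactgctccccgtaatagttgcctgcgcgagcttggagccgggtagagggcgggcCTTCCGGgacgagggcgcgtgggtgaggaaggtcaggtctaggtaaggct

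The MRPS12 window holds 4 CCAAT boxes and 1 ETS core, the MRPL46 and MRPL1 windows hold a YY1 core past the annotated start, and the MRPS33 window holds an NRF1 site and, as its reverse complement, an ETS core. Promoter windows were found for 67 of the 76 members. The ETS core was in 28 of these (41.8%), against 20.2% of the 10233 windows of genes tested and 10.3% of all 35116 windows. The YY1 core was in 24 (35.8%), against 10.9% and 5.55%. The E-box was in 5 (7.46%) against 10.3% of windows of genes tested, the NRF1 site in 7 (10.4%) against 12.5%, and the CCAAT box in 19 (28.4%) against 37.3%. Among 66 windows of cytosolic ribosomal protein genes, 34.8% held the ETS core and 18.2% the YY1 core. The E-box was in 6.06% of these windows, the NRF1 site in 9.09% and the CCAAT box in 31.8%. Members with and without an ETS core had a median log2 fold change of 0.46 and 0.51 at 6 h, and those with and without a YY1 core 0.50 and 0.45. A match describes letters in a window and is not a measured binding site.

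The stalk of the large subunit recruits translation factors. MRPL12, whose copies form the flexible stalk, had 28.4, 31.7 and 38.7 CPM at 0 h, 43.2, 40.7 and 44.3 CPM at 3 h, and 71.6, 61.8 and 63.8 CPM at 6 h. It rose by 0.38 at 3 h (SE 0.098, edgeR adjusted p = 0.00467) and by 1.00 at 6 h (SE 0.098, edgeR adjusted p = 1.56e-06), without overlap. The 3 h value was 0.17 with library size alone (adjusted p = 0.132) and 0.22 with upper-quartile factors (adjusted p = 0.0701). MRPL11, at the stalk base, rose by 0.23 at 3 h (SE 0.064, edgeR adjusted p = 0.00534) and 0.60 at 6 h (SE 0.064, edgeR adjusted p = 1.40e-06), and the 3 h value was 0.03 with library size alone (adjusted p = 0.67) and 0.08 with upper-quartile factors (adjusted p = 0.302).

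MRPL10 (ENSG00000159111, chromosome 17), which anchors MRPL12 to the stalk base, moved the other way. It had 74.3, 71.8 and 79.9 CPM at 0 h, 63.4, 60.7 and 64.0 CPM at 3 h, and 59.8, 57.1 and 60.7 CPM at 6 h. All treated libraries were below all untreated ones. MRPL10 fell by 0.27 at 3 h (SE 0.053, edgeR adjusted p = 0.000524) and by 0.35 at 6 h (SE 0.053, edgeR adjusted p = 4.39e-05). By library size alone the falls were 0.47 and 0.58. No other gene overlaps its exons in the annotation and no pseudogene of it was counted.

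The other falls were smaller or did not last. MRPL34 (chromosome 19), a small large-subunit protein, had 92.0, 96.4 and 118 CPM at 0 h, 74.4, 66.5 and 77.0 CPM at 3 h, and 102, 93.9 and 92.8 CPM at 6 h. It fell by 0.49 at 3 h (SE 0.088, edgeR adjusted p = 0.000281) and its log2 fold change was -0.09 at 6 h (edgeR adjusted p = 0.396). The 3 h libraries were lowest, and the 6 h libraries lay within the range of the untreated ones. The 6 h value was -0.32 with library size alone (adjusted p = 0.00626), -0.23 with upper-quartile factors (adjusted p = 0.0378) and -0.15 with GC and length trends removed (adjusted p = 0.0182). It was 0.02 without untreated replicate 3 (adjusted p = 0.716). MRPS16, a small subunit protein with a bacterial counterpart, fell by 0.22 at 3 h (SE 0.061, edgeR adjusted p = 0.00586), with 108.7, 106.9 and 108.8 CPM at 3 h against 118.4, 119.4 and 139.6 CPM at 0 h. At 6 h its log2 fold change was 0.12 (edgeR adjusted p = 0.0967). Without untreated replicate 3 these values were -0.14 (adjusted p = 0.0052) and 0.19 (adjusted p = 0.000386), so that the 6 h value then passed. By library size alone they were -0.42 and -0.12.

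MRPS33, a mitochondria-specific small subunit gene, had 45.6, 47.1 and 50.2 CPM at 0 h, 41.7, 39.6 and 43.6 CPM at 3 h, and 42.8, 40.7 and 45.7 CPM at 6 h. The 3 h libraries were below the untreated ones, and the 6 h libraries overlapped them. It fell by 0.19 at 3 h (SE 0.06, edgeR adjusted p = 0.0112) and by 0.14 at 6 h (SE 0.06, edgeR adjusted p = 0.0445). The 6 h call did not hold without untreated replicate 3 (-0.11, adjusted p = 0.0847), or without 6 h replicate 10 (-0.10, adjusted p = 0.185). It was also lost without untreated replicate 2, 3 h replicate 5, 3 h replicate 7 or 6 h replicate 9 (adjusted p = 0.0653, 0.0621, 0.0584 and 0.102), and with no filter on low counts (adjusted p = 0.0898). Library size alone gave larger falls, of 0.40 at 3 h and 0.38 at 6 h. The 3 h call was lost without 3 h replicate 6 (adjusted p = 0.0534). MRPL24, a large subunit gene, fell by 0.19 at 3 h (SE 0.075, edgeR adjusted p = 0.0387). That call was lost without untreated replicate 3 (-0.12, adjusted p = 0.111), without 3 h replicate 5 (-0.20, adjusted p = 0.074) or without 3 h replicate 6 (-0.14, adjusted p = 0.147), while library size alone gave -0.39.

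Between the treated times, the largest rises were those of MRPL12, MRPS12, MRPL55 and MRPS7, at 0.62, 0.62, 0.60 and 0.59. MRPL55, a large subunit gene with a bacterial counterpart, had 21.1, 20.7 and 24.5 CPM at 0 h, 23.8, 22.2 and 24.8 CPM at 3 h, and 37.6, 35.7 and 33.9 CPM at 6 h. Its 3 h and 0 h libraries overlapped, with a log2 fold change of 0.09 (edgeR adjusted p = 0.273), and the 6 h libraries were above both. The 3 h value was 0.17 without untreated replicate 3 (adjusted p = 0.0215) and 0.17 with trends in GC content and length removed (adjusted p = 0.00317). It was -0.11 by library size alone (adjusted p = 0.206). The member that was lower at 6 h than at 3 h was MRPL44 (chromosome 2), a large subunit protein with an RNase III-like fold, by -0.18 (SE 0.054, edgeR adjusted p = 0.0138). It had 38.4, 38.2 and 39.1 CPM at 0 h, 56.0, 55.7 and 56.8 CPM at 3 h, and 53.3, 46.4 and 48.7 CPM at 6 h, so both treated groups were above the untreated one. The fall between treated times did not pass without 3 h replicate 7 (adjusted p = 0.053) or without 6 h replicate 10 (adjusted p = 0.0548).

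**Figure D4:**
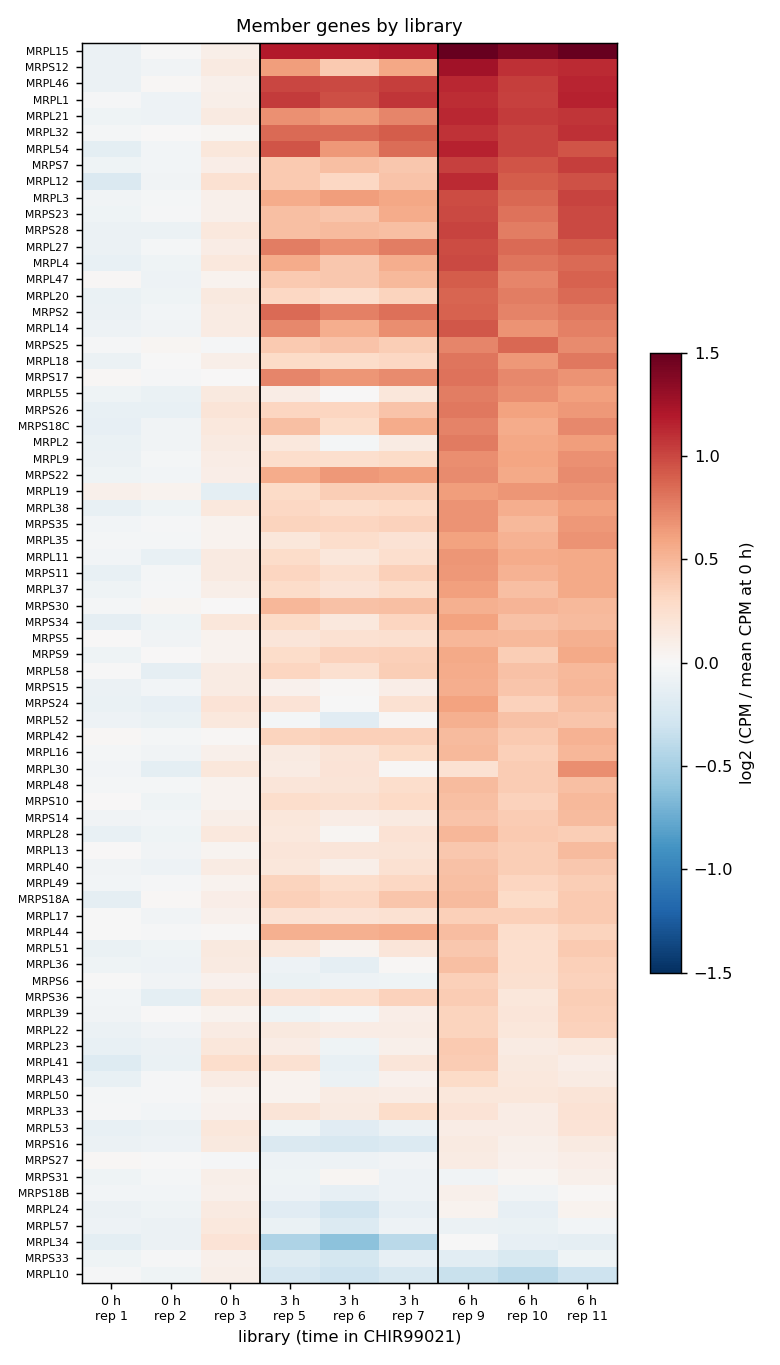
log2 ratio of each member's CPM to its mean at 0 h (colour, red above and blue below) in the 9 libraries (columns) for all 76 members (rows, sorted by the 6 h log2 fold change). Treated columns are redder at 6 h than at 3 h in most rows, MRPL34 is the bluest row at 3 h, and untreated replicate 3 is a little redder than the other untreated replicates.

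The MRPS18 genes are paralogs of the same bacterial protein whose products take separate places in the particle. Differences between them were not tested. MRPS18C, in the small subunit, rose by 0.43 at 3 h (SE 0.088, edgeR adjusted p = 0.000695) and 0.68 at 6 h (SE 0.088, edgeR adjusted p = 1.30e-05). MRPS18A, in the large subunit, rose by 0.36 at 3 h (SE 0.069) and 0.38 at 6 h (SE 0.069, edgeR adjusted p = 0.000189), and its 6 h value was 0.15 with library size alone (adjusted p = 0.0663). MRPS18B, in the small subunit, had 63.1, 62.6 and 68.3 CPM at 0 h, 61.1, 59.6 and 61.4 CPM at 3 h, and 68.2, 62.3 and 65.3 CPM at 6 h. Its log2 fold change was -0.09 at 3 h (SE 0.053) and 0.01 at 6 h (SE 0.053, edgeR adjusted p = 0.836), and by library size alone it was -0.29 at 3 h (adjusted p = 0.000165) and -0.22 at 6 h (adjusted p = 0.00121). The 3 h fall also passed with upper-quartile factors (-0.25, adjusted p = 0.00106), with GC and length trends removed (-0.14, adjusted p = 0.00107) and with a filter of 1 CPM in 3 libraries (-0.14, adjusted p = 0.0266). The 3 genes have 3, 1 and 2 annotated pseudogenes in the table, in the order named.

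MRPL58, a peptidyl-tRNA hydrolase built into the large subunit that can free stalled ribosomes, rose by 0.31 at 3 h (SE 0.066, edgeR adjusted p = 0.000838) and 0.50 at 6 h (SE 0.066, edgeR adjusted p = 1.15e-05). Its 3 h value was 0.11 by library size alone (adjusted p = 0.154) and 0.16 by upper-quartile factors (adjusted p = 0.0565). MRPS30, in the large subunit, had 54.3 to 56.6 CPM at 0 h, 75.2 to 78.5 CPM at 3 h and 78.1 to 80.6 CPM at 6 h. It rose by 0.46 and 0.51, and the difference of 0.05 between 6 h and 3 h did not pass (edgeR adjusted p = 0.418). Across the 3 times, 69 of the 76 members differed in the edgeR F test, beside 77.7% of all genes tested. The 7 that did not were MRPL23, MRPL24, MRPL41, MRPL53, MRPL57, MRPS18B and MRPS31.

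Levels between genes were compared per kilobase of exon. The member median was 28.9 ± 1.67 CPM per kb at 0 h, 34.0 ± 0.603 at 3 h and 40.2 ± 1.33 at 6 h (SD of the libraries, n = 3 each). MRPS34, a mitochondria-specific small subunit gene on chromosome 16, was highest, with 186 ± 20.9 CPM per kb in untreated libraries, 221 ± 13.01 in 3 h libraries and 264 ± 16.8 in 6 h libraries. It was followed over all libraries by MRPL18 at 99.96 CPM per kb and MRPL3 at 95.0 CPM per kb, both of the large subunit. With lengths from all annotated transcripts these were 71.1 and 63.0 CPM per kb, ranking 4 and 6. MRPL3 had 111, 114 and 122 CPM at 0 h, 170.4, 178 and 173 CPM at 3 h, and 227, 209 and 234 CPM at 6 h, without overlap, and rose 1.93-fold at 6 h (SE 0.055 on the log2 scale, edgeR adjusted p = 2.28e-09). MRPL18 rose 1.68-fold at 6 h. The rise of MRPS34 at 6 h was 1.42-fold (edgeR adjusted p = 5.08e-05).

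The lowest levels per kb were those of MRPL30, at 0.665 CPM per kb over all libraries, MRPL42 at 3.61 and MRPL53 at 5.41. The annotated exons of MRPL42 span 16.0 kb, far above the member median of 1633 bases, and exons of MRPL30 overlap 2 other annotated genes. MRPL30 had 1.57, 1.46 and 1.82 CPM at 0 h, 1.76, 1.86 and 1.63 CPM at 3 h, and 1.89, 2.10 and 2.63 CPM at 6 h. Its rise at 6 h (0.45, SE 0.15, edgeR adjusted p = 0.014) was lost on leaving out untreated replicate 2 (0.37, adjusted p = 0.062) or 6 h replicate 11 (0.31, adjusted p = 0.0831). It was also lost with library size alone (0.21, adjusted p = 0.219) and with upper-quartile factors (0.30, adjusted p = 0.0908).

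Many members have neighbours or copies in the annotation. Exons of 41 members overlap another gene in the annotation, 29 of them a gene on the opposite strand, and 33 members have annotated pseudogenes in the table. Of the 19 members with neither, 13 rose and 2 fell at 3 h, and 16 rose and 1 fell at 6 h, with medians of 0.29 and 0.51. Members with overlapping exons include MRPL11 (with PELI3), MRPL34 (with ABHD8) and MRPS16 (with DNAJC9). Exons of MRPS7 overlap those of GGA3 and MIF4GD on the opposite strand. MRPL12 and MRPL46 each overlap a gene on the same strand, and MRPL15 has 1 annotated pseudogene in the table. For 29 members (38.2%), another protein-coding gene starts on the opposite strand within 1000 bases, compared with 13.1% of all protein-coding genes in the table. Of these partners, 28 were tested, and MRPS11 and MRPL46 are partners of each other. At 6 h, 13 of the 28 tested partners rose and 10 fell, beside 35.7% and 35% of all genes tested, with a median of 0.13. Of the 29 members with a partner, 24 rose and 1 fell, with a median of 0.58. Member and partner both rose at 6 h in 12 of the 28 tested cases and were called in opposite directions in 7, with MRPS11 and MRPL46 counted from both sides. Beside MRPL14 and MRPL27, which rose by 0.79 and 0.91 at 6 h, TMEM63B fell by 1.88 (SE 0.12) and EME1 by 1.04 (SE 0.074), with edgeR adjusted p = 4.36e-09 and 1.75e-08. Beside MRPL18, TCP1, a subunit of the cytosolic chaperonin, rose by 1.05 (SE 0.049, edgeR adjusted p = 3.10e-10).

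For comparison with the lists that follow, 32.8% of all genes tested rose and 33.5% fell at 3 h. At 6 h these shares were 35.7% and 35%. Some proteins of the mitoribosome are encoded by genes with other names. Of 5 tested, 4 rose and 1 fell at 3 h, and all 5 rose at 6 h with a median of 0.65. Scaling by library size alone left 1 rise and 1 fall at 3 h and 3 rises at 6 h. AURKAIP1, GADD45GIP1, CHCHD1 and DAP3 rose by 0.90 (SE 0.086), 0.88 (SE 0.084), 0.65 (SE 0.086) and 0.27 (SE 0.048) at 6 h. The DAP3 value was 0.03 by library size alone (adjusted p = 0.472). PTCD3, a small subunit protein with RNA-binding repeats, fell by 0.18 at 3 h (SE 0.054) and rose by 0.20 at 6 h (SE 0.054, edgeR adjusted p = 0.0039), though the 6 h value was -0.03 with library size alone (adjusted p = 0.612) and 0.06 with upper-quartile factors (adjusted p = 0.319).

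Genes for assembly of the mitoribosome and modification of its RNA moved in both directions. Of 25 tested, 18 rose and 7 fell at 3 h, and 18 rose and 5 fell at 6 h. The rises were 13 and 15 and the falls 7 and 6 with library size alone. FASTKD2 and the RNA helicase DHX30, which bind mitochondrial RNA in granules where ribosomes are assembled, rose 2.45-fold and 1.79-fold at 6 h, and the pseudouridine synthase RPUSD4 2.04-fold. Its relative RPUSD3 fell 1.89-fold at 3 h and 1.52-fold at 6 h. Of 16 translation factors and related proteins, 7 rose and 5 fell at 3 h, and 8 rose and 4 fell at 6 h. The 3 h shares, 43.8% and 31.3%, were near those of all genes tested, 32.8% and 33.5%. With library size alone, 6 of the 16 rose and 9 fell at 3 h, and 7 rose and 8 fell at 6 h. Among them the elongation factor GFM1 rose 1.87-fold at 6 h, whereas OXA1L, which inserts new mitochondrial proteins into the inner membrane, fell 1.62-fold at 3 h and 1.27-fold at 6 h.

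Of 23 genes for mitochondrial protein import, 17 rose and 1 fell at 3 h, and 19 rose and none fell at 6 h, with a median of 0.69. TOMM40, the channel of the outer membrane, had 84.4 ± 5.28 CPM at 0 h, 202 ± 13.5 CPM at 3 h and 302 ± 19.0 CPM at 6 h (SD, n = 3 each), a 3.57-fold rise at 6 h (edgeR adjusted p = 3.46e-11). TIMM17A of the inner membrane channel rose 2.67-fold and GRPEL1, a cofactor of the import motor, 2.34-fold. With library size alone, 13 import genes rose and 6 fell at 3 h, and 18 rose and 2 fell at 6 h. Of 10 genes for mitochondrial transcription and DNA maintenance, 8 rose and 2 fell at 3 h, and 9 rose at 6 h with a median of 0.77. By library size alone, 7 of these rose and 2 fell at 3 h, and 7 rose and 1 fell at 6 h. The helicase TWNK rose 3.03-fold at 3 h and 2.52-fold at 6 h, and the transcription factor TFB2M 2.48-fold and 2.34-fold. TFAM, which packages mitochondrial DNA, rose 1.73-fold at both times. TWNK starts divergently from MRPL43, whose own log2 fold change was 0.02 at 3 h and 0.19 at 6 h (-0.19 and -0.04 with library size alone). Exons of MRPL43 overlap those of TWNK and SEMA4G on the opposite strand, and the strand setting of the counting is not known.

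Of 8 regulators of mitochondrial biogenesis that were tested, 7 rose and 1 fell at 3 h, and 6 rose and 1 fell at 6 h. Under library size alone, 5 rose and 2 fell at 3 h, and 4 rose and 2 fell at 6 h. The coactivator PPRC1 rose 2.67-fold at 3 h and 2.33-fold at 6 h, PPARGC1B by 0.99 and 0.94 on the log2 scale, and ESRRA by 0.54 and 0.65. GABPB1 rose by 0.90 and 0.52 and NRF1 by 0.48 and 0.28, its 6 h value being 0.04 by library size alone (adjusted p = 0.342). GABPA rose by 0.26 at 3 h and was at 0.00 at 6 h. Library size alone gave it 0.06 (adjusted p = 0.338) and -0.24 (adjusted p = 0.00149), and upper-quartile factors gave 0.11 (adjusted p = 0.0741) and -0.15 (adjusted p = 0.0197). YY1 rose by 0.12 at 3 h and 0.26 at 6 h, its 3 h value being -0.09 with library size alone and -0.04 with upper-quartile factors. MYC was the one that fell, with 558 ± 22.6 CPM at 0 h, 447 ± 22.2 CPM at 3 h and 349 ± 12.01 CPM at 6 h (SD, n = 3 each).

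Transcripts made inside mitochondria were counted in the same libraries. The small and large ribosomal RNAs, MT-RNR1 and MT-RNR2, rose by 0.53 (SE 0.083) and 0.45 (SE 0.063) at 3 h, and at 6 h their log2 fold changes were 0.17 (SE 0.083, edgeR adjusted p = 0.0913) and 0.32 (SE 0.063, edgeR adjusted p = 0.000398). By library size alone neither passed at 6 h, with -0.07 for MT-RNR1 (adjusted p = 0.497) and 0.09 for MT-RNR2 (adjusted p = 0.239). Of 13 mitochondrially encoded mRNAs, 2 rose and 1 fell at 3 h, and 2 rose and 3 fell at 6 h (median -0.06). MT-ND1 rose by 0.34 and 0.40, and MT-CO2 fell by 0.20 and 0.37. With library size alone, 2 rose and 7 fell at 3 h, and 1 rose and 11 fell at 6 h. Cytosolic ribosomal protein genes, 83 of which were tested, had 11 rises and 4 falls at 3 h and 31 rises and 5 falls at 6 h, with medians of 0.01 and 0.11. Scaled by library size alone, 6 rose and 50 fell at 3 h, and 7 rose and 21 fell at 6 h. Their medians were then -0.19 and -0.12, where those of the mitochondrial members were 0.057 and 0.26.

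**Figure D5:**
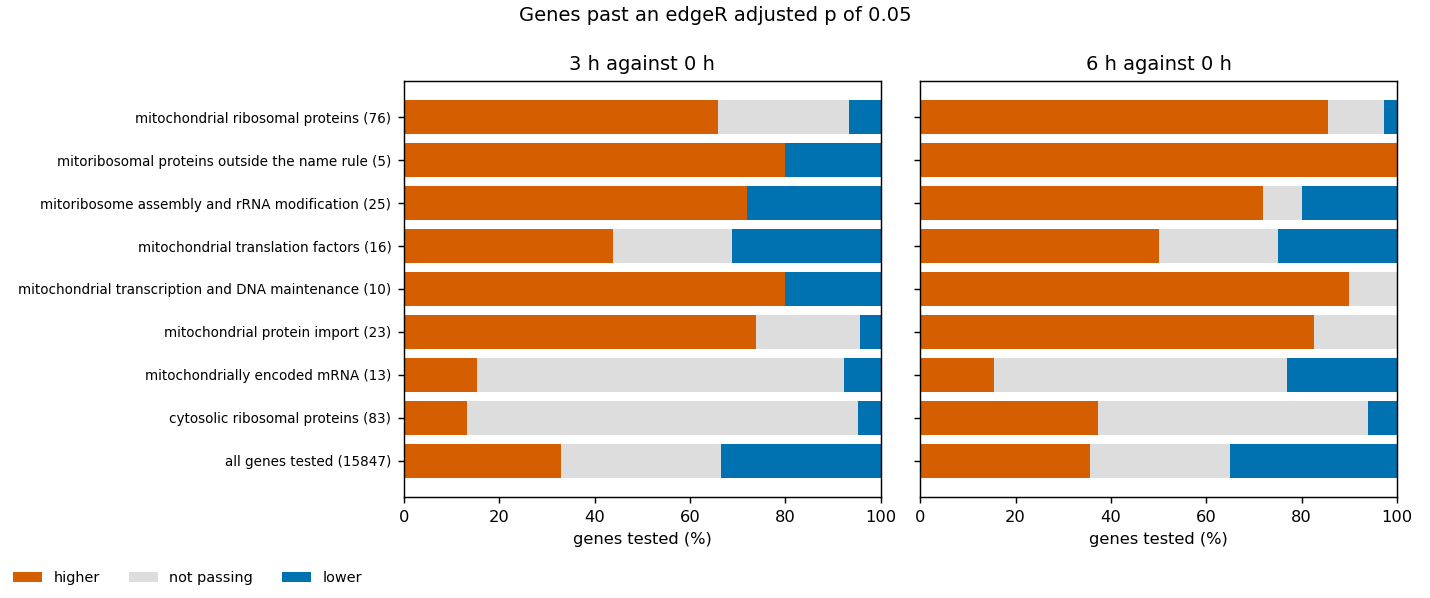
Percentage of tested genes (horizontal axis) that were higher (orange), lower (blue) or did not pass (grey) at an edgeR adjusted p of 0.05, for each gene list with its number of tested genes in brackets, at 3 h (left) and 6 h (right) against 0 h. Mitochondrial ribosomal protein genes are orange for 65.8% at 3 h and 85.5% at 6 h, where 32.8% and 35.7% of all genes tested are. Calls are those with TMM scaling.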

How the data were processed

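For 9 RNA libraries the authors deposited whole-number counts by Ensembl gene, not normalized. GSNAP 2015-12-31, HTSeq 0.6.0, limma 3.30.0 and the build hg19 are named in the submitters' processing notes. The annotation release, counting mode and strand setting are not given in the sources used here. HTSeq summary entries stayed out of library sizes, and 67.6% to 70.9% of the reads counted lay in genes. Counting error alone puts the limit behind a 0 (3 counts) at 0.0567 to 0.0647 CPM, depending on the library.

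Counts were analysed with edgeR 4.0.16 in R 4.3.3: filterByExpr (minimum count 10, minimum total 15), TMM factors, and a robust quasi-likelihood fit with a mean per time over all 9 libraries (6 residual degrees of freedom, common biological coefficient of variation 6.53%). Tests were two-sided. Lengths, gene types, overlaps and neighbours came from GENCODE 29 (GRCh38), matched by gene identifier. Of 78 reference symbols that match the name pattern, 76 had a row under their identifier, and MRPS21 and MRPL45 are not analysed here. Of the listed genes, MRM1, RCC1L and TIMM23 had no match, and TOMM6 and PPARGC1A were not tested. The fit was repeated with other scalings and filters, with each library left out, on the compared groups only, against a minimum fold of 1.2 and with GC and length trends removed. It was also replaced by limma-voom (limma 3.58.1) and DESeq2 1.42.0. Lengths from all annotated transcripts were added after seeing the data.

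Members and lists were chosen with earlier results of these data known. Named members were the 5 largest rises and falls past the threshold against 0 h, the 4 largest between 6 h and 3 h, the 3 highest and lowest levels per kb, and a fixed set of stalk, decoding centre, MRPS18 and other genes. From the lists, up to 4 genes with the smallest p, or every gene of short lists, could be named, and a part of them is given. MRPS11, MRPL14, MRPL27 and MRPL43 and the divergent partners were named after their values were seen. On simulated data for 3 h against 0 h, with 50 genes changed at each fold, the fit recovered 22% at 1.2-fold, 92% at 1.5-fold and 100% at 2-fold, and 4.85% of the calls were unchanged genes. Far fewer genes changed in that simulation than were called here, so its recovery does not carry over to small changes in these data.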

Additional observations from a re-analysis of the deposited data

Results flagged for a closer look

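For some members, log2 fold changes against 0 h had opposite signs at 3 h and 6 h, and the difference between these times passed in the edgeR quasi-likelihood test of 6 h against 3 h. Of these, 4 were flagged. Not all were: MRPS27, at -0.07 at 3 h and 0.09 at 6 h, also passed between these times (0.16), while neither of its values against 0 h passed. MRPL52 was at -0.06 at 3 h and 0.47 at 6 h, a difference of 0.52 (SE 0.072, edgeR adjusted p = 6.03e-05). MRPL36 was at -0.06 and 0.35, a difference of 0.42 (SE 0.071, edgeR adjusted p = 0.000346). MRPS6 was at -0.08 and 0.32, a difference of 0.40 (SE 0.054, edgeR adjusted p = 5.49e-05). MRPS16 was at -0.22 and 0.12, a difference of 0.34 (SE 0.061, edgeR adjusted p = 0.000552). The 3 h value did not pass for MRPL52, MRPL36 and MRPS6, and the 6 h value did not pass for MRPS16. By library size alone the 3 h values of MRPL52, MRPL36 and MRPS6 passed as falls, at -0.26, -0.27 and -0.29 (edgeR adjusted p = 0.00695, 0.00441 and 0.000261), and the 6 h values were 0.23, 0.12 and 0.08 (edgeR adjusted p = 0.013, 0.146 and 0.174). In all 4 genes, each of the 3 libraries at 6 h was above each of the 3 libraries at 3 h. The genes were flagged by that same difference, so the separation adds no support. It was also seen in 57 of the 76 members and in 4314 of the 15847 genes tested. How many of all genes tested changed sign in this way is not given here. For MRPS16 the 6 h value was -0.12 with library size alone and -0.031 with upper-quartile factors, so that both values against 0 h were then negative, and 0.19 without untreated replicate 3 (edgeR adjusted p = 0.000386).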

How the results depend on the processing

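No paired analysis was made, because the groups share no replicate number and the labels do not say whether cultures were paired across times. DESeq2 and limma-voom gave 48 and 50 members higher at 3 h, and both gave 65 at 6 h. At 3 h, the number of members higher was 25 with library size alone, 30 with upper-quartile factors and 23 against a minimum fold of 1.2. The number lower at 3 h was 16, 14 and 1 under these settings, 12 with GC and length trends removed and 9 with a filter of 1 CPM in 3 libraries. The 3 h median was 0.057 with library size alone, 0.11 with upper-quartile factors, 0.23 with the trends removed and 0.21 with the 1 CPM filter. Leaving out each library in turn gave 3 to 5 lower at 3 h and a median of 0.22 to 0.30. At 6 h, the number lower was 8 with library size alone and with the trends removed, 5 with upper-quartile factors, 1 against a minimum fold of 1.2 and 1 with no filter, and 1 to 2 over the leave-outs. The 6 h median was 0.26 with library size alone, 0.35 with upper-quartile factors and 0.43 with the trends removed. Between 6 h and 3 h, 18 were higher and 0 lower against a minimum fold of 1.2 and 3 were lower with the trends removed, and over the leave-outs 40 to 57 were higher and 0 to 1 lower. MRPS18B, at 0.01 at 6 h, was at -0.22 with library size alone, -0.14 with upper-quartile factors, -0.091 with the trends removed, -0.017 on the compared groups alone and -0.028 with the 1 CPM filter, and ran from -0.016 to 0.052 over the leave-outs. Of the 50 members called higher at 3 h, 4 changed sign with library size alone and 1 with upper-quartile factors. Of the 65 called higher at 6 h, 4 changed sign with library size alone and 1 with the trends removed. Among the members named by the stated rules, other signs turned between values that both missed the threshold. With library size alone and upper-quartile factors, MRPL30 was at -0.085 and -0.037 at 3 h, MRPL55 at -0.11 and -0.061 at 3 h, MRPL53 at -0.093 and -0.0044 at 6 h and MRPS16 at -0.12 and -0.031 at 6 h. MRPL24 at 6 h was 0.011 with no filter and -0.051 to 0.065 over the leave-outs, MRPL34 at 6 h was -0.16 to 0.025 over the leave-outs, and MRPS18A between 6 h and 3 h was -0.052 with the trends removed, -0.014 with library size alone and -0.023 to 0.068 over the leave-outs. These scalings move all genes together, with a median of -0.22 or -0.17 at 3 h and -0.22 or -0.13 at 6 h for library size alone and upper-quartile factors. For the other named gene values, 1468 kept direction and side of the threshold, 75 no longer passed and 31 came to pass. The cause of the other changes was not tested. Depth limits MRPL30 in particular, at 1.46 to 2.63 CPM per library.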
